A study of Homo sapiens with 36 samples.

Results

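The 10 genes described here encode receptors and ligands of axon guidance signalling. They were taken as a named list, UNC5B, PLXNA1, PLXNA2, PLXNB1, PLXNB2, PLXND1, NRP1, NRP2, SEMA3C and NTN4, and all 10 were found among the 57500 gene IDs of the count table. They were chosen by measured values of these same libraries, namely the level in each line and the changes with knockdown and with bile salts. Levels and changes are therefore given as a description. An adjusted p-value below places a gene among all genes tested and is no independent support for its change.

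The libraries hold polyA mRNA of OE33 and FLO1, human cell lines of esophageal adenocarcinoma. All cells were stably transduced with an shRNA: shAPE1#3 or shAPE1#1, which target the mRNA of APE1 (gene APEX1), or shControl, a non-targeting shRNA that the control cells carried throughout. In each line, shAPE1#3, shAPE1#1 and shControl cells were taken after acidic bile salts (ABS; a cocktail of 200 µM at pH 4.0 for 20 min, then 6 h of recovery in complete medium) or unexposed. This gave 12 groups of 3 libraries, 36 in all, which the design text describes as independent biological replicates. OE33 was grown in RPMI1640 and FLO1 in DMEM, so the medium and the line cannot be told apart, and no mock exposure of the unexposed cells is described. APE1 cuts DNA at abasic sites during base excision repair, and it also controls the redox state of transcription factors, AP-1 among them.

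Netrins and semaphorins are cues that steer growing axons, and the same proteins act on the adhesion, migration and survival of epithelial and tumour cells. UNC5B is a netrin receptor that can trigger apoptosis when it is not bound by its ligand. Plexins are the transmembrane receptors of semaphorins. Most secreted semaphorins of class 3, such as SEMA3C, do not bind a plexin alone and need the co-receptors NRP1 or NRP2, which also bind VEGF. NTN4 is a netrin with laminin-like domains that is found in basement membranes.

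Library totals were 20.7 to 38.0 M counts in OE33 and 21.8 to 40.7 M in FLO1 (M, 1e6 counts), and levels are given as CPM, counts per 1e6 counts of the library. APEX1, the target of the shRNAs, was at 21.8 ± 0.53 CPM with shAPE1#3, 23.9 ± 1.7 CPM with shAPE1#1 and 194.8 ± 3.1 CPM with shControl in unexposed OE33 cells. In unexposed FLO1 cells it was at 37.1 ± 1.1 CPM with shAPE1#3, 25.2 ± 0.19 CPM with shAPE1#1 and 196.6 ± 1.6 CPM with shControl (mean ± SD, n = 3 in each group). All 8 epithelial marker genes had a mean of at least 1 CPM in OE33 and 6 of 8 in FLO1, with summed levels of 21100 to 27400 CPM in OE33 and 2450 to 4680 CPM in FLO1. The summed mesenchymal markers were at 226 to 736 CPM in OE33 and at 2900 to 3560 CPM in FLO1. This list was split between the lines in unexposed shControl cells. VIM, ZEB1 and ZEB2 were lower in OE33 (log2 fold changes of -12.25, -6.16 and -6.35 against FLO1). FN1 and SNAI2 were higher in OE33 (6.64 and 5.43). The 8 endothelial markers summed to 0.0726 to 0.884 CPM in OE33 and to 2.65 to 5.84 CPM in FLO1, where 1 of them had a mean of at least 1 CPM, and PECAM1, TEK, KDR and ERG averaged below 0.1 CPM in both lines. One library stood apart, FLO1 shControl replicate 2 after ABS. Its genes of high GC content were raised against those of low GC content by 0.75 on the log2 scale, against -0.34 to 0.25 in the other FLO1 libraries and -0.21 to 0.41 in OE33. UNC5B, PLXNA1, PLXNB1, PLXNB2 and PLXND1 lie in the fifth of tested genes with the highest GC content and SEMA3C in the fifth with the lowest. Values without this library are given beside the results it enters.

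The promoters of PLXNA2, PLXNA1 and NRP2 are shown because these genes, together with UNC5B, were lower with both shRNAs in OE33 cells after ABS. Each sequence holds the 250 bases before a transcription start in RefSeq (build GRCh38.p14), read 5′ to 3′ on the strand of the gene, and the capitals mark GC boxes (GGGCGG on either strand).
PLXNA2 chr1:208244385-208244634, minus strand: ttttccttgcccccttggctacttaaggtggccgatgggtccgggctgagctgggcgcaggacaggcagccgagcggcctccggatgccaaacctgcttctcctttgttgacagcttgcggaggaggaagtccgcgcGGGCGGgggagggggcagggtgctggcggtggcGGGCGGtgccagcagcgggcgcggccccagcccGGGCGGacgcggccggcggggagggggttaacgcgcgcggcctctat
PLXNA1 chr3:126982865-126983114, plus strand: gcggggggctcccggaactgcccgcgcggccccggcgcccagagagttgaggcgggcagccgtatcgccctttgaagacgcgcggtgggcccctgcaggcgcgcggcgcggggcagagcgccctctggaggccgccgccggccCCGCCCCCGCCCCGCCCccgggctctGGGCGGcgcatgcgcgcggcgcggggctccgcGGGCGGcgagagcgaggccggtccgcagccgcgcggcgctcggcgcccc
NRP2 chr2:205682251-205682500, plus strand: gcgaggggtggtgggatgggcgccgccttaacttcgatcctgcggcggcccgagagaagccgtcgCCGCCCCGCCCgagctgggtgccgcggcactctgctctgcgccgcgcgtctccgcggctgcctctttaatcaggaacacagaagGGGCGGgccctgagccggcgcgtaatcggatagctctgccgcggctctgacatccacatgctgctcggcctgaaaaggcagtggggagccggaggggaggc
The PLXNA2 stretch held 3 GC boxes, the PLXNA1 stretch 5 and the NRP2 stretch 3. Some of those of PLXNA1 and NRP2 run into each other. A GC box was found in 42.6% of the 35116 RefSeq promoter stretches of the same length. The AP-1 motif TGANTCA, the E-box CACGTG and the TATA motif TATAAA were searched on both strands in the same way and occurred in 6.57%, 6.34% and 10.7% of all stretches. None of these 3 motifs occurred in the 11 stretches that matched 8 of the 10 genes, all but UNC5B and NRP1. A match is a description of letters and not of a bound site.

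The first comparison was the baseline of unexposed shControl cells in OE33 against FLO1. Levels between genes are compared as CPM per kb of exon. PLXNB2, a plexin that binds class 4 semaphorins, was the highest of the 10 in both lines, at 100.2 ± 3.9 CPM per kb in OE33 and 50.4 ± 4.2 CPM per kb in FLO1 (n = 3). PLXNA2, which pairs with neuropilins as a semaphorin receptor, was the lowest in both, at 0.244 ± 0.045 CPM per kb in OE33 and 0.232 ± 0.038 CPM per kb in FLO1. The order between these ends differed. In OE33 it ran SEMA3C, NTN4, PLXNA1, NRP1, NRP2, PLXND1, PLXNB1 and UNC5B, and the libraries of SEMA3C (28.6 ± 2.2 CPM per kb) and NTN4 (28.6 ± 0.53 CPM per kb) overlapped. In FLO1 it ran PLXNA1, SEMA3C, UNC5B, PLXND1, NRP1, NRP2, PLXNB1 and NTN4, and no neighbours in that order overlapped.

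**Figure D1:**
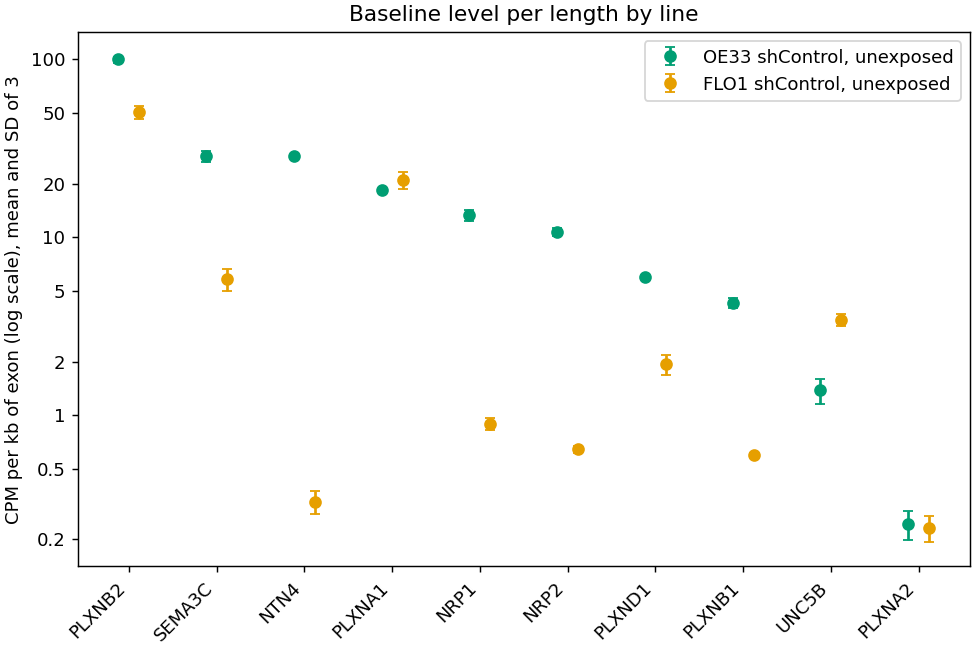
Level of each gene in unexposed shControl cells of OE33 (green, left of each pair) and FLO1 (orange), as CPM per kb of exon on a log axis; points are means and bars the SD of 3 libraries. NTN4, NRP1 and NRP2 lie far apart between the lines, PLXNA1 and PLXNA2 close together, and UNC5B is the one gene that is called lower in OE33.

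Of the 10 genes, 7 were called higher in OE33 than in FLO1, 1 was called lower and 2 were not called, where 77.6% of the 18199 genes tested were called between the lines (edgeR's quasi-likelihood test, Benjamini-Hochberg adjusted p under 0.05). The gap was widest for the ligand NTN4, at 119.2, 121.4 and 117.0 CPM in the OE33 replicates and 1.58, 1.31 and 1.18 CPM in the FLO1 replicates. This is a log2 fold change of 6.58 ± 0.14 (SE). The FLO1 level was 1.14% of that in OE33, above the trace of OE33-high genes seen in FLO1 libraries: among 2004 such genes, the median of the 5 lowest was at most 0.0908% of the OE33 level in any FLO1 library.

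Both neuropilins were far higher in OE33. NRP1 was at 143.9, 150.5 and 164.5 CPM in OE33 and at 10.98, 10.5 and 9.48 CPM in FLO1, a log2 fold change of 4.02 ± 0.10. NRP2 was at 143.4, 145.9 and 157.8 CPM in OE33 and at 9.25, 8.5 and 9.14 CPM in FLO1, a change of 4.19 ± 0.10. SEMA3C, a secreted ligand that signals through neuropilins, was higher in the same line, with 179.5 ± 13.7 CPM in OE33 against 36.5 ± 5.1 CPM in FLO1 (2.43 ± 0.13 on the log2 scale). The co-receptors and this ligand thus stood higher in every OE33 library than in any FLO1 library of these groups.

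Among the plexins, PLXNB1, the receptor of SEMA4D, averaged 41.6 ± 2.8 CPM in OE33 and 5.82 ± 0.13 CPM in FLO1 (log2 fold change 2.97 ± 0.16). PLXND1, which can bind SEMA3E without a neuropilin, averaged 57.9 ± 0.94 CPM in OE33 and 18.8 ± 2.4 CPM in FLO1 (1.75 ± 0.13). PLXNB2 averaged 726.8 ± 28.4 CPM in OE33 and 365.9 ± 30.2 CPM in FLO1 (1.12 ± 0.13). PLXNA1, a co-receptor partner of the neuropilins, was not called, with 203.0 ± 2.8 CPM in OE33 and 230.3 ± 24.7 CPM in FLO1 (-0.05 ± 0.13). PLXNA2 was not called either, with 3.36 ± 0.62 CPM in OE33 and 3.2 ± 0.53 CPM in FLO1 (0.20 ± 0.22). UNC5B was lower in OE33, with 8.06, 9.17 and 11.02 CPM in OE33 against 22.6, 22.2 and 25.8 CPM in FLO1, a log2 fold change of -1.19 ± 0.14. The median log2 fold change of the 10 genes was 2.09, beside -0.06 over all genes tested. With a correction for GC content, PLXNA1 and PLXNA2 were called higher in OE33 as well (0.32 ± 0.10 and 0.53 ± 0.21, edgeR adjusted p = 0.00534 and 0.0212), and UNC5B had a change of -0.78 ± 0.12.

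Partners of these receptors were split between the lines as well. NTN1, the ligand of UNC5B, had 0 counts in the 3 unexposed OE33 shControl libraries and averaged 162.5 ± 11.5 CPM in the FLO1 ones. Against a floor of 3 counts over the OE33 group, NTN1 was at least 4572-fold lower in OE33. DCC, the other classical netrin-1 receptor, had 0 counts in both groups, which allows up to 0.0355 CPM in each (3 counts over the group, counting error only). NEO1, a receptor related to DCC, was at 15.8 ± 0.93 CPM in OE33 and 18.3 ± 0.22 CPM in FLO1. SEMA3A, a ligand of NRP1, was at 261.8 ± 19.2 CPM in OE33 and 0.211 ± 0.13 CPM in FLO1. It was among the 5 lowest of the 2004 OE33-high genes in FLO1 shControl replicate 3. Its FLO1 level therefore cannot be told apart from the trace given above. PLXNA3 was at 87.1 ± 2.9 CPM in OE33 and 4.8 ± 0.44 CPM in FLO1, and PLXNB3 at 21.0 ± 1.1 CPM in OE33 and 0.311 ± 0.064 CPM in FLO1. PLXNA4 went the other way, with 0.0943 ± 0.10 CPM in OE33 and 4.84 ± 0.27 CPM in FLO1. Of 11 plexin and neuropilin genes tested, 8 were called higher in OE33 and 1 lower, and of 18 semaphorin genes 8 were higher and 6 lower. Of 10 netrin and netrin receptor genes tested, 1 was higher in OE33 and 6 were lower. These shares of called genes lie near the 77.6% of all genes. In bulk RNA, fewer cells with a transcript and less of it per cell cannot be told apart.

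The second comparison asked what APE1 knockdown did in OE33, with the effect of each shRNA set against the same shControl libraries. In unexposed cells, 3 of the 10 genes were called lower with both shRNAs and none higher, where 12.9% of 15540 genes were called with both and in 1 direction. Taken singly, shAPE1#3 called 21.7% of all genes and shAPE1#1 16.4%. The median log2 fold change of the 10 genes was -0.03 with shAPE1#3 and -0.10 with shAPE1#1, beside 0.00 and 0.01 over all genes tested. Markers of a mesenchymal state moved with the knockdown. Of the 4 of 7 mesenchymal markers tested, FN1, VIM and ZEB1 were called higher with both shRNAs, and the summed list was at 552 to 636 CPM with shAPE1#3, 421 to 577 CPM with shAPE1#1 and 226 to 255 CPM with shControl. CDH2 and TWIST1 of that list averaged below 0.1 CPM in OE33. VIM and ZEB1 were far lower in OE33 than in FLO1 shControl cells (-12.25 and -6.16 on the log2 scale). FLO1-high genes left a trace in some OE33 libraries. Among 2086 such genes, the median of the 5 lowest was 0.0% of the FLO1 level in each unexposed shControl library. It was 0.0273% to 0.0559% with shAPE1#3 and 0.0% to 0.0861% with shAPE1#1. The part of this trace in the rise of VIM and ZEB1 was not tested. The summed epithelial markers were at 21300 to 22200 CPM with shAPE1#3, 21100 to 23300 CPM with shAPE1#1 and 25300 to 27400 CPM with shControl. Of the 8, 1 (KRT19) was called lower with both shRNAs. CDH1 went the other way and was called higher with shAPE1#3 alone (0.28 ± 0.07, edgeR adjusted p = 0.00678). The part of these shifts in the changes below was not tested.

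UNC5B changed most. It was at 1.31, 1.64 and 1.26 CPM with shAPE1#3, at 1.77, 1.22 and 1.56 CPM with shAPE1#1, and at 8.06, 9.17 and 11.02 CPM with shControl. Every knockdown library lay far below every control library. The log2 fold change was -2.72 ± 0.18 with shAPE1#3 (edgeR adjusted p = 5.92e-11) and -2.62 ± 0.17 with shAPE1#1 (adjusted p = 4.06e-11). Over the 6 OE33 groups the means of UNC5B spanned 6.94-fold, the widest range of the 10 genes in either line.

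PLXNA2, a plexin of the same subfamily as PLXNA1, showed the next largest change. It was at 1.26, 0.799 and 0.717 CPM with shAPE1#3, at 1.4, 1.01 and 0.687 CPM with shAPE1#1, and at 2.86, 4.05 and 3.16 CPM with shControl. Each knockdown group lay below the control group without overlap, while the 2 knockdown groups overlapped each other, and the spread within each is wide for a gene at this level. PLXNA2 changed by -1.85 ± 0.29 on the log2 scale with shAPE1#3 (edgeR adjusted p = 5.13e-05) and -1.69 ± 0.28 with shAPE1#1 (adjusted p = 8.74e-05).

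PLXNA1 changed less but at a far higher level. It was at 135.5, 129.4 and 151.2 CPM with shAPE1#3, at 142.3, 153.1 and 124.9 CPM with shAPE1#1, and at 203.6, 205.4 and 199.9 CPM with shControl. All 6 knockdown libraries lay below the 3 control libraries. On the log2 scale the change was -0.53 ± 0.09 with each shRNA (edgeR adjusted p = 0.000171 with shAPE1#3 and 0.000168 with shAPE1#1).

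The other 7 genes were not called with both shRNAs in unexposed OE33 cells. SEMA3C was called with shAPE1#3 alone, at 223.8, 199.6 and 219.3 CPM with shAPE1#3, against 166.7, 178.0 and 193.9 CPM with shControl (log2 fold change 0.28 ± 0.09, edgeR adjusted p = 0.0298). With shAPE1#1 its change was 0.21 ± 0.09 (adjusted p = 0.121). The SEMA3C call was lost without shControl replicate 1 or 2 or without shAPE1#3 replicate 1 or 3, with adjusted p-values of 0.116, 0.075, 0.105 and 0.0841. With the GC correction SEMA3C was called higher with both shRNAs (0.28 with shAPE1#3 and 0.24 with shAPE1#1). NRP1 and NRP2 had log2 fold changes of 0.04 and 0.16 with shAPE1#3 and of -0.21 and -0.06 with shAPE1#1. PLXNB1, PLXNB2 and PLXND1 lay between -0.33 and 0.14, and NTN4 was at 0.06 and 0.01 (shAPE1#3, then shAPE1#1).

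**Figure D2:**
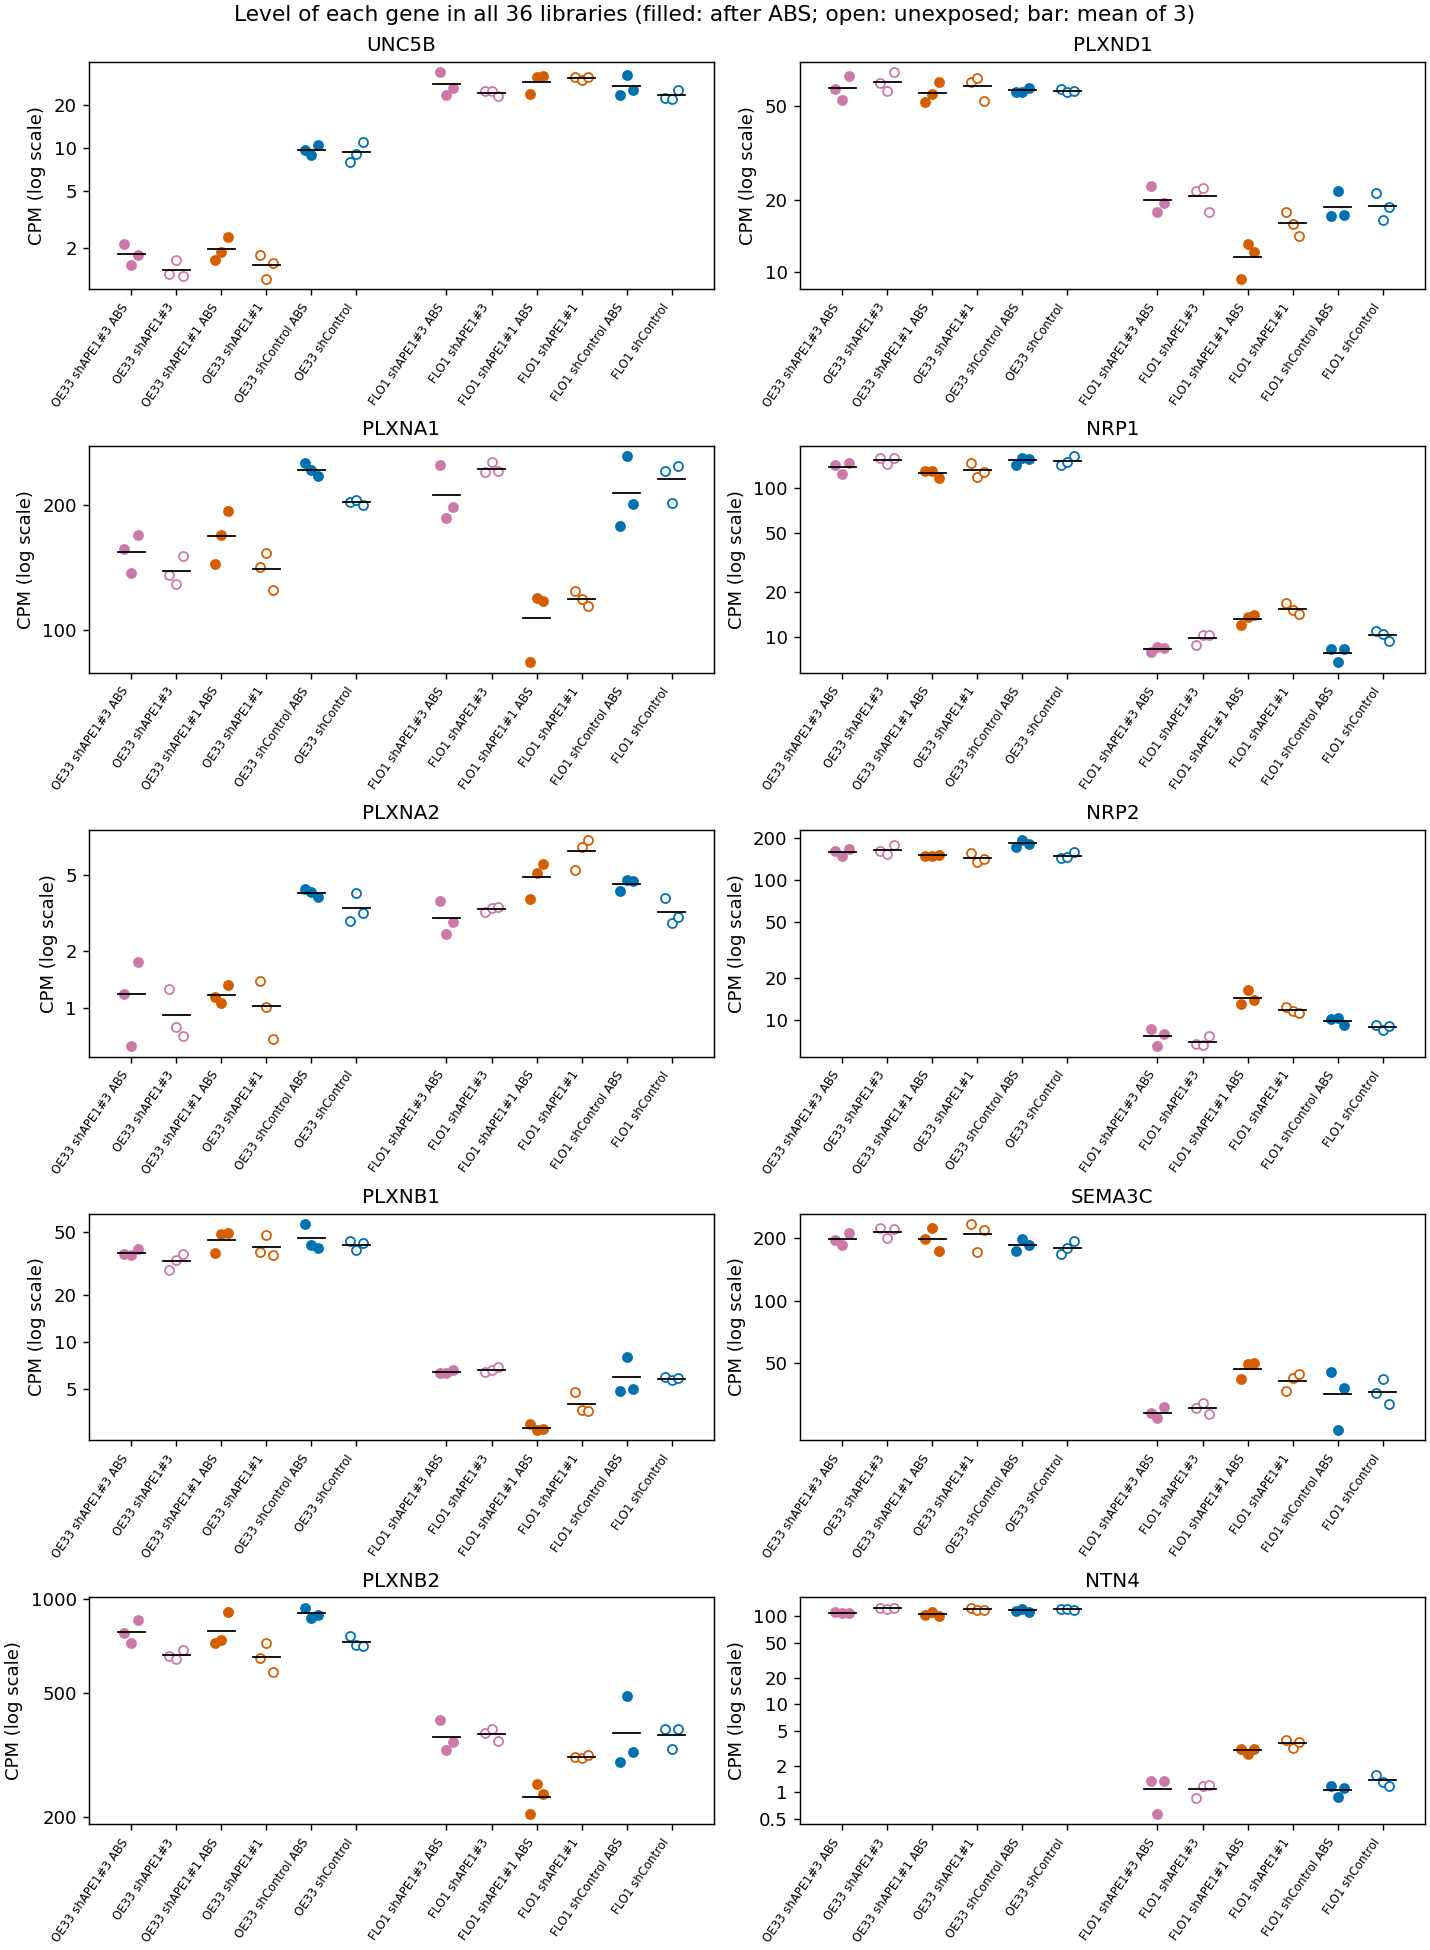
CPM of each gene in all 36 libraries on log axes, with the 6 groups of OE33 left and those of FLO1 right; filled points are libraries after ABS, open points unexposed ones, and bars the means of 3. UNC5B and PLXNA2 are lower in every OE33 knockdown group than in the OE33 controls, and PLXNA1, PLXNB1, NRP1, NRP2 and NTN4 of FLO1 shAPE1#1 stand apart from FLO1 shAPE1#3.

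After ABS, 4 of the 10 genes were called lower with both shRNAs in OE33 and none higher, against 12.4% of all genes. Singly, shAPE1#3 called 18.1% of genes and shAPE1#1 15.8%. UNC5B was at 2.12, 1.52 and 1.79 CPM with shAPE1#3, at 1.65, 1.86 and 2.39 CPM with shAPE1#1, and at 9.69, 9.0 and 10.6 CPM with shControl. The knockdown libraries were again all far below the controls, with log2 fold changes of -2.44 ± 0.17 (shAPE1#3) and -2.33 ± 0.17 (shAPE1#1). PLXNA2 changed by -1.80 ± 0.27 and -1.81 ± 0.27, and PLXNA1 by -0.65 ± 0.09 and -0.57 ± 0.09, with shAPE1#3 and then shAPE1#1. After ABS the summed mesenchymal markers were at 578 to 736 CPM with shAPE1#3, 510 to 555 CPM with shAPE1#1 and 325 to 380 CPM with shControl, and 1 of 4 tested (FN1) was called higher with both shRNAs.

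NRP2, the co-receptor that binds SEMA3C and SEMA3F, was the fourth gene. After ABS it was at 160.1, 147.3 and 167.6 CPM with shAPE1#3, at 149.3, 149.2 and 151.7 CPM with shAPE1#1, and at 172.9, 192.5 and 181.1 CPM with shControl. The 6 knockdown libraries lay just below the 3 controls. Its change was -0.20 ± 0.07 on the log2 scale with shAPE1#3 (edgeR adjusted p = 0.0404) and -0.32 ± 0.07 with shAPE1#1 (adjusted p = 0.0016). The call with shAPE1#3 was lost without the filter on low counts (adjusted p = 0.0837) and without shControl ABS replicate 2 or 3 or shAPE1#3 ABS replicate 1 or 2 (0.166, 0.0737, 0.0827 and 0.15). With shAPE1#1 alone, NRP1 was also called, at 130.6, 131.5 and 117.4 CPM with shAPE1#1 against 144.3, 160.1 and 158.7 CPM with shControl (-0.33 ± 0.08, adjusted p = 0.00384). NTN4 was called with shAPE1#1 alone as well (-0.19 ± 0.06, adjusted p = 0.0305). That call was lost without the filter on low counts (adjusted p = 0.119), when only the compared groups were fitted (0.111), and without shControl ABS replicate 1 or 2 or shAPE1#1 ABS replicate 1 or 3 (0.0609, 0.158, 0.0728 and 0.111). With shAPE1#3, NRP1 was at -0.15 ± 0.08 and NTN4 at -0.09 ± 0.06. PLXNB1 (-0.31 and -0.07), PLXNB2 (-0.19 and -0.23), PLXND1 (0.04 and -0.07) and SEMA3C (0.09 and 0.06) were not called with shAPE1#3 or shAPE1#1. With the GC correction PLXNB2 was called lower with both shRNAs (-0.19 and -0.28).

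The OE33 groups of shAPE1#3 and shAPE1#1 were then compared directly. Unexposed, edgeR called 0 of the 10 genes and 0.0% of all 15540 genes, DESeq2 called 0 of the 10, and 3 of the 10 had an unadjusted p under 0.05. After ABS, edgeR called 0 of the 10 and 0.116% of all genes, DESeq2 called 0, and 1 of the 10 had an unadjusted p under 0.05. UNC5B differed by -0.10 ± 0.22 unexposed and by -0.11 ± 0.20 after ABS (shAPE1#3 over shAPE1#1), and PLXNA1 by 0.00 ± 0.09 and -0.09 ± 0.09. The other 8 genes lay between -0.28 and 0.25 unexposed and between -0.24 and 0.18 after ABS. Since no gene of the unexposed cells told the 2 OE33 groups apart, a call with both shRNAs in OE33 is not read here as a check by a separate shRNA.

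The knockdown in FLO1 gave another picture, since the 2 shRNAs differed there. Unexposed, 0 of the 10 genes were called with both shRNAs, against 0.0711% of the 16868 genes tested. None had an unadjusted p under 0.05 with both, and DESeq2 also called 0. With shAPE1#3 alone edgeR called 0 of the 10, against 0.788% of all genes, with 1 of the 10 at an unadjusted p under 0.05 and 0 called by DESeq2. With shAPE1#1 alone it called 4 of the 10, against 6.74% of all genes: PLXNA1 lower, and PLXNA2, NRP1 and NTN4 higher. The 4 calls held in all 12 alternatives run for each. Other settings called more of the 10 with shAPE1#1: DESeq2 called 6 (with PLXNB1 and NRP2 added), the fit without the filter on low counts 6 (PLXNB1 and UNC5B), the GC correction 7 (PLXNB1, NRP2 and UNC5B) and the fit to only the compared groups 8 (PLXNB1, PLXNB2, NRP2 and UNC5B). The 6.74% of all genes belongs to the main fit, and no such share is given for these settings. Of 7 epithelial markers tested, 4 (CDH1, CLDN4, KRT8 and KRT18) were called higher with shAPE1#1 and none with shAPE1#3, and the summed list was at 2560 to 2600 CPM with shAPE1#3, 3730 to 3940 CPM with shAPE1#1 and 2450 to 2780 CPM with shControl. Of 4 mesenchymal markers tested, only ZEB2 was called with shAPE1#1, and it was lower (-0.90 ± 0.14). The summed mesenchymal list was at 3280 to 3410 CPM with shAPE1#3, 3010 to 3090 CPM with shAPE1#1 and 3040 to 3300 CPM with shControl. The part of these marker shifts was not tested.

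In unexposed FLO1 cells, PLXNA1 was at 239.2, 252.9 and 241.0 CPM with shAPE1#3, at 124.0, 118.7 and 114.5 CPM with shAPE1#1, and at 241.4, 202.0 and 247.4 CPM with shControl. The shAPE1#1 libraries lay far below the controls and the shAPE1#3 libraries among or above them. The log2 fold change was 0.07 ± 0.15 with shAPE1#3 (edgeR adjusted p = 0.95) and -0.96 ± 0.15 with shAPE1#1 (adjusted p = 0.00028).

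NTN4 was at 0.861, 1.16 and 1.2 CPM with shAPE1#3, at 3.87, 3.13 and 3.71 CPM with shAPE1#1, and at 1.58, 1.31 and 1.18 CPM with shControl. The shAPE1#1 libraries were above all the others. The log2 fold change was -0.38 ± 0.25 with shAPE1#3 (edgeR adjusted p = 0.744) and 1.38 ± 0.23 with shAPE1#1 (adjusted p = 0.000493). Even so, NTN4 stayed low in FLO1, since shAPE1#1 brought it to 3.57 ± 0.39 CPM, where OE33 shControl cells had 119.2 ± 2.2 CPM.

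PLXNA2 was at 3.2, 3.38 and 3.39 CPM with shAPE1#3, at 5.33, 7.07 and 7.66 CPM with shAPE1#1, and at 3.79, 2.79 and 3.01 CPM with shControl. The log2 fold change was 0.04 ± 0.19 with shAPE1#3 (edgeR adjusted p = 0.984) and 1.06 ± 0.18 with shAPE1#1 (adjusted p = 0.000737). PLXNA2 was thus higher with shAPE1#1 in unexposed FLO1 cells, and lower with the same shRNA in OE33. NRP1 was at 8.78, 10.3 and 10.4 CPM with shAPE1#3, at 16.9, 15.2 and 14.4 CPM with shAPE1#1, and at 10.98, 10.5 and 9.48 CPM with shControl. Its log2 fold change was -0.10 ± 0.11 with shAPE1#3 (adjusted p = 0.879) and 0.58 ± 0.11 with shAPE1#1 (adjusted p = 0.00157). UNC5B was not called with either, at 0.05 ± 0.14 (adjusted p = 0.966) and 0.40 ± 0.14 (adjusted p = 0.0992), shAPE1#3 and then shAPE1#1. PLXNB1 was at 0.17 ± 0.16 and -0.54 ± 0.17 (adjusted p = 0.852 and 0.0623), and NRP2 at -0.37 ± 0.12 and 0.39 ± 0.12 (adjusted p = 0.256 and 0.0576). PLXNB2 (-0.01 and -0.24), PLXND1 (0.12 and -0.25) and SEMA3C (-0.28 and 0.16) were not called with shAPE1#3 or shAPE1#1.

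**Figure D3:**
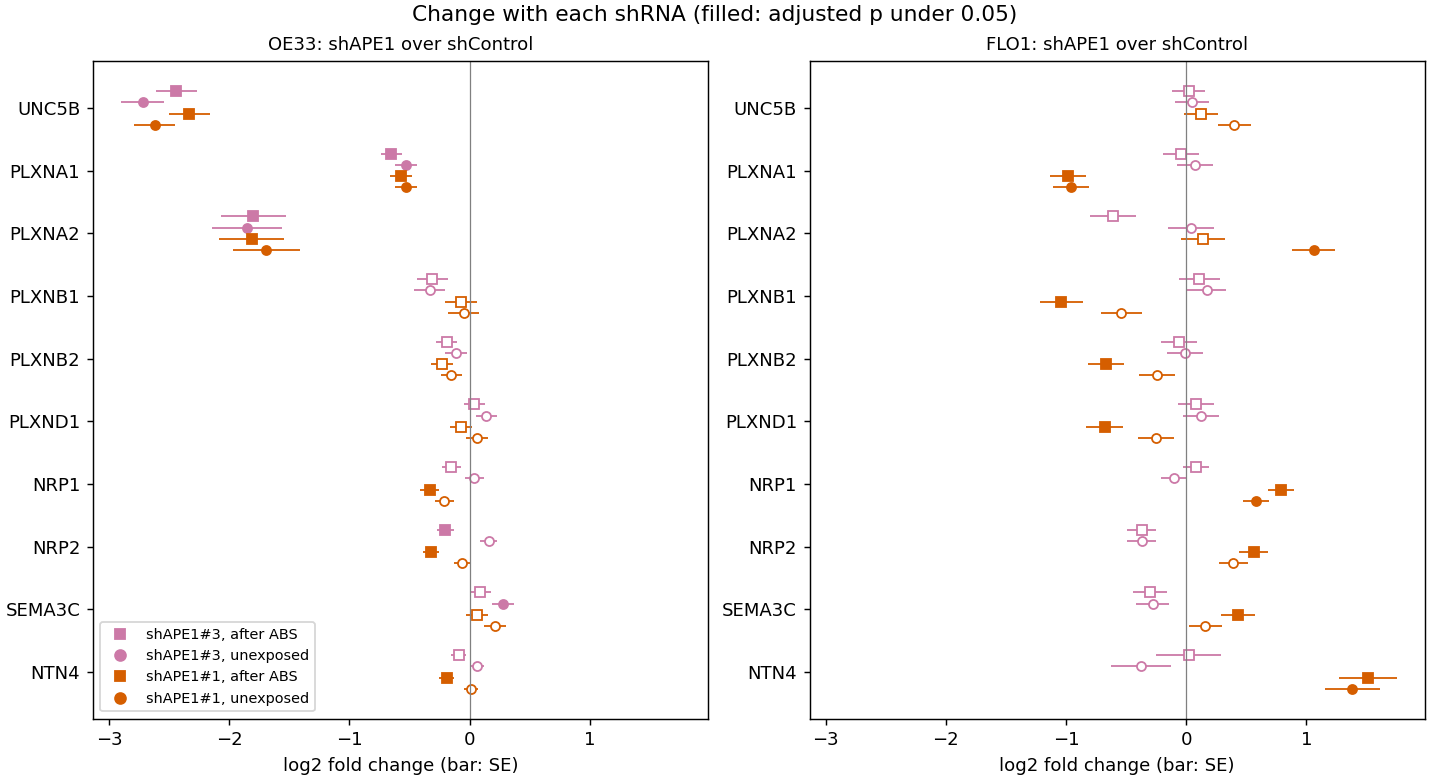
Log2 fold change of shAPE1 over shControl for each gene in OE33 (left) and FLO1 (right), with shAPE1#3 and shAPE1#1 after ABS (squares) and unexposed (circles); bars are SE and filled symbols have an adjusted p under 0.05. In OE33 both shRNAs lie together, with UNC5B between -2.72 and -2.33, while in FLO1 the filled symbols are all of shAPE1#1.

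After ABS, 0 of the 10 genes were called with both shRNAs in FLO1, against 0.142% of all genes, none had an unadjusted p under 0.05 with both, and DESeq2 called 0. With shAPE1#3 edgeR called 0 of the 10, against 0.783% of all genes, with 3 of the 10 at an unadjusted p under 0.05 and 0 called by DESeq2. The GC correction called 2 with shAPE1#3, SEMA3C (-0.29 ± 0.08, edgeR adjusted p = 0.0314) and PLXNA2 (-0.63 ± 0.18, adjusted p = 0.0498). With shAPE1#1 edgeR called 8 of the 10, against 16.6% of all genes. The 4 plexins PLXNA1, PLXNB1, PLXNB2 and PLXND1 were lower, and NRP1, NRP2, SEMA3C and NTN4 were higher. PLXNA2 (-0.61 ± 0.19 with shAPE1#3 and 0.14 ± 0.18 with shAPE1#1) and UNC5B (0.02 ± 0.14 and 0.12 ± 0.14) were not called, though UNC5B was called with shAPE1#1 after the GC correction (0.29 ± 0.10, adjusted p = 0.0384). The summed epithelial markers were at 2780 to 2840 CPM with shAPE1#3, 4270 to 4680 CPM with shAPE1#1 and 2540 to 3090 CPM with shControl, and 4 of 7 tested were again called higher with shAPE1#1.

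PLXNB1 was at 6.36, 6.32 and 6.59 CPM with shAPE1#3, at 2.98, 2.73 and 2.79 CPM with shAPE1#1, and at 4.86, 7.95 and 4.98 CPM with shControl. The highest control value was that of replicate 2, the library of shifted GC content. The change with shAPE1#1 was -1.04 ± 0.18 (edgeR adjusted p = 0.00039), and -0.74 ± 0.15 without that library (adjusted p = 0.000889). PLXNB2 was at 409.4, 328.5 and 347.1 CPM with shAPE1#3, at 204.0, 255.1 and 236.0 CPM with shAPE1#1, and at 300.1, 489.0 and 323.3 CPM with shControl. Its change with shAPE1#1 was -0.67 ± 0.15 (adjusted p = 0.0042), and -0.37 ± 0.10 without the library (adjusted p = 0.0078). PLXND1 changed by -0.68 ± 0.15 with shAPE1#1 (-0.52 ± 0.14 without the library) and PLXNA1 by -0.98 ± 0.15 (-0.77 ± 0.13 without it). The plexins were called lower with shAPE1#1 with and without this library, by a smaller amount without it. With shAPE1#3, PLXNB1 was at 0.11 ± 0.17 and at 0.41 ± 0.14 without the library (adjusted p = 0.0774), PLXNB2 at -0.06 and 0.23, PLXND1 at 0.08 and 0.24, and PLXNA1 at -0.04 and 0.17, none of them called.

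On the side of the ligands and co-receptors, NTN4 changed by 1.51 ± 0.24 with shAPE1#1 after ABS (1.42 ± 0.27 without the library), NRP1 by 0.79 ± 0.11 (0.73 ± 0.12 without it) and NRP2 by 0.56 ± 0.12 (0.63 ± 0.13 without it). NRP2 was at 8.7, 6.54 and 8.04 CPM with shAPE1#3, at 13.1, 16.4 and 14.0 CPM with shAPE1#1, and at 10.2, 10.4 and 9.28 CPM with shControl. SEMA3C changed by 0.43 ± 0.14 with shAPE1#1 (edgeR adjusted p = 0.04), and by 0.24 ± 0.10 without the library, where it was no longer called (adjusted p = 0.125). With shAPE1#3 SEMA3C changed by -0.30 ± 0.14 (adjusted p = 0.559), and by -0.50 ± 0.10 without the library (adjusted p = 0.00428). The other co-receptors and ligands with shAPE1#3 were NRP1 at 0.08, NRP2 at -0.37 and NTN4 at 0.02, and at 0.02, -0.31 and -0.07 without the library. Without it PLXNA2 was at -0.55 and UNC5B at 0.20 with shAPE1#3, and at 0.21 and 0.31 with shAPE1#1, none called. The SEMA3C call with shAPE1#1 was also lost without shControl ABS replicate 3 (adjusted p = 0.0521) and without shAPE1#1 ABS replicate 2 or 3 (0.119 and 0.118). When only the compared groups were fitted, PLXNB2, PLXND1, NRP2 and SEMA3C were no longer called (adjusted p = 0.108, 0.0743, 0.0865 and 0.25).

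The direct comparison of the shRNAs in FLO1 called 7 of the 10 genes in unexposed cells, against 12.2% of all genes. With shAPE1#3 relative to shAPE1#1, PLXNA1 (log2 fold change 1.03 ± 0.15) and PLXNB1 (0.71 ± 0.17) were higher. NTN4 (-1.76 ± 0.23), PLXNA2 (-1.03 ± 0.18), NRP2 (-0.76 ± 0.12), NRP1 (-0.67 ± 0.11) and SEMA3C (-0.44 ± 0.14) were lower. UNC5B (-0.36 ± 0.14), PLXNB2 (0.23 ± 0.15) and PLXND1 (0.37 ± 0.15) were not called here, and all 3 were when only the compared groups were fitted. After ABS 9 of the 10 were called, against 22.3% of all genes, and UNC5B was the one not called (-0.10 ± 0.14). PLXNB1 (1.15 ± 0.17), PLXNA1 (0.95 ± 0.15), PLXND1 (0.77 ± 0.15) and PLXNB2 (0.61 ± 0.15) were higher with shAPE1#3. NTN4 (-1.49 ± 0.23), NRP2 (-0.93 ± 0.12), PLXNA2 (-0.75 ± 0.18), SEMA3C (-0.73 ± 0.14) and NRP1 (-0.71 ± 0.11) were lower. This comparison uses no control library. The residual APEX1 level was higher with shAPE1#3 than with shAPE1#1 in unexposed FLO1 cells, by 0.55 ± 0.08 on the log2 scale, and its part in these differences was not tested. Of 7 epithelial markers tested, 5 were called lower with shAPE1#3 than with shAPE1#1, unexposed (median log2 fold change -0.70) and after ABS (-0.75), and their part was not tested either. The SEMA3C call in unexposed cells was lost without shAPE1#3 replicate 1, 2 or 3 (edgeR adjusted p = 0.114, 0.0798 and 0.148) and without shAPE1#1 replicate 2 or 3 (0.13 and 0.174).

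The response to ABS was small for these genes. In OE33 shControl cells 2 of the 10 were called higher after ABS and none lower, against 8.4% of all genes. NRP2 was at 172.9, 192.5 and 181.1 CPM after ABS and at 143.4, 145.9 and 157.8 CPM unexposed, with no overlap (log2 fold change 0.31 ± 0.07, edgeR adjusted p = 0.00418), a call kept in all alternatives run. PLXNB2 was at 940.0, 874.1 and 891.1 CPM after ABS and at 759.5, 713.5 and 707.5 CPM unexposed (0.33 ± 0.09, adjusted p = 0.0177). The PLXNB2 call was lost without shControl replicate 2 or 3 or shControl ABS replicate 1 or 3 (adjusted p = 0.0778, 0.0762, 0.0809 and 0.0524). PLXNA1 had a change of 0.28 ± 0.09 (adjusted p = 0.0579) and UNC5B of 0.07 ± 0.14 (adjusted p = 0.817). PLXNA1 was called by DESeq2 (3 genes called in all), without the filter on low counts, with the GC correction and when only the compared groups were fitted (adjusted p = 0.0398, 0.00963, 0.0176 and 0.00138). PLXNA2, PLXNB1, PLXND1, NRP1, SEMA3C and NTN4 lay between -0.01 and 0.29. The summed mesenchymal markers were at 325 to 380 CPM after ABS and 226 to 255 CPM unexposed in these cells, with 1 of 4 called higher, and their part was not tested.

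In OE33 knockdown cells 0 of the 10 genes were called for ABS with both shRNAs, against 1.63% of all genes, with 2 at an unadjusted p under 0.05 with both and 0 called by DESeq2. NRP2 was at 158.3 ± 10.2 CPM after ABS and 163.8 ± 11.6 CPM unexposed with shAPE1#3, and at 150.1 ± 1.4 CPM after ABS and 143.4 ± 10.4 CPM unexposed with shAPE1#1. Its log2 fold changes were -0.05 ± 0.07 and 0.05 ± 0.07, where shControl cells had 0.31 ± 0.07. The difference of these responses from that of shControl cells was -0.36 ± 0.10 with shAPE1#3 (edgeR adjusted p = 0.674) and -0.26 ± 0.10 with shAPE1#1 (adjusted p = 1.0), which does not pass the threshold. With shAPE1#1 alone, NTN4 was called lower after ABS, against 4.73% of all genes, at 103.3, 112.2 and 99.5 CPM after ABS and 124.3, 118.4 and 118.0 CPM unexposed (-0.22 ± 0.06, adjusted p = 0.0393). That call was lost without the filter on low counts (adjusted p = 0.132), when only the compared groups were fitted (0.311), without shAPE1#1 replicate 1, 2 or 3 (0.133, 0.0595 and 0.0743) and without shAPE1#1 ABS replicate 1 or 3 (0.0919 and 0.156). With shAPE1#3 NTN4 changed by -0.17 ± 0.06 (adjusted p = 0.156). The other 8 genes lay between -0.16 and 0.35 with shAPE1#3 and between -0.10 and 0.36 with shAPE1#1.

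In FLO1 shControl cells 1 of the 10 genes was called for ABS, against 3.0% of all genes. NRP1 was at 8.3, 6.76 and 8.29 CPM after ABS and at 10.98, 10.5 and 9.48 CPM unexposed, with no overlap (log2 fold change -0.46 ± 0.11, edgeR adjusted p = 0.0253). The value was -0.39 ± 0.12 without the library of shifted GC content (adjusted p = 0.0514). The call was also lost without shControl replicate 1 or 2 (adjusted p = 0.138 and 0.0792), without the filter on low counts (0.0815) and when only the compared groups were fitted (0.39). Of the other genes PLXNA1 was at -0.15, PLXNB1 at -0.03, PLXNB2 at -0.02 and PLXND1 at -0.05, and without the library at -0.36, -0.32, -0.31 and -0.20 (adjusted p = 0.116, 0.2, 0.0567 and 0.438). UNC5B, PLXNA2, NRP2, SEMA3C and NTN4 lay between -0.41 and 0.45, and between -0.32 and 0.38 without it. In FLO1 knockdown cells 0 of the 10 were called with both shRNAs, against 1.14% of all genes, with 1 at an unadjusted p under 0.05 with both and 0 called by DESeq2. NRP1 had changes of -0.28 ± 0.11 with shAPE1#3 and -0.25 ± 0.11 with shAPE1#1. With shAPE1#1 the changes of PLXNB1 (-0.52 ± 0.18), PLXND1 (-0.49 ± 0.15) and PLXNB2 (-0.45 ± 0.15) had adjusted p-values of 0.0999, 0.0694 and 0.0875. These depended on the setting: DESeq2 called PLXND1 and PLXNB2 (0.0278 and 0.0441), as did the fit without the filter on low counts (0.0147 and 0.00105). The fit to only the compared groups called PLXNB1, PLXND1 and PLXNB2 (0.0459, 0.0264 and 0.0021), and the GC correction called these 3 (0.0299, 0.0266 and 0.00486) and NRP1 (0.0429). The other 6 genes lay between -0.47 and 0.27 with shAPE1#1, and the 9 genes besides NRP1 between -0.25 and 0.14 with shAPE1#3.

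**Figure D4:**
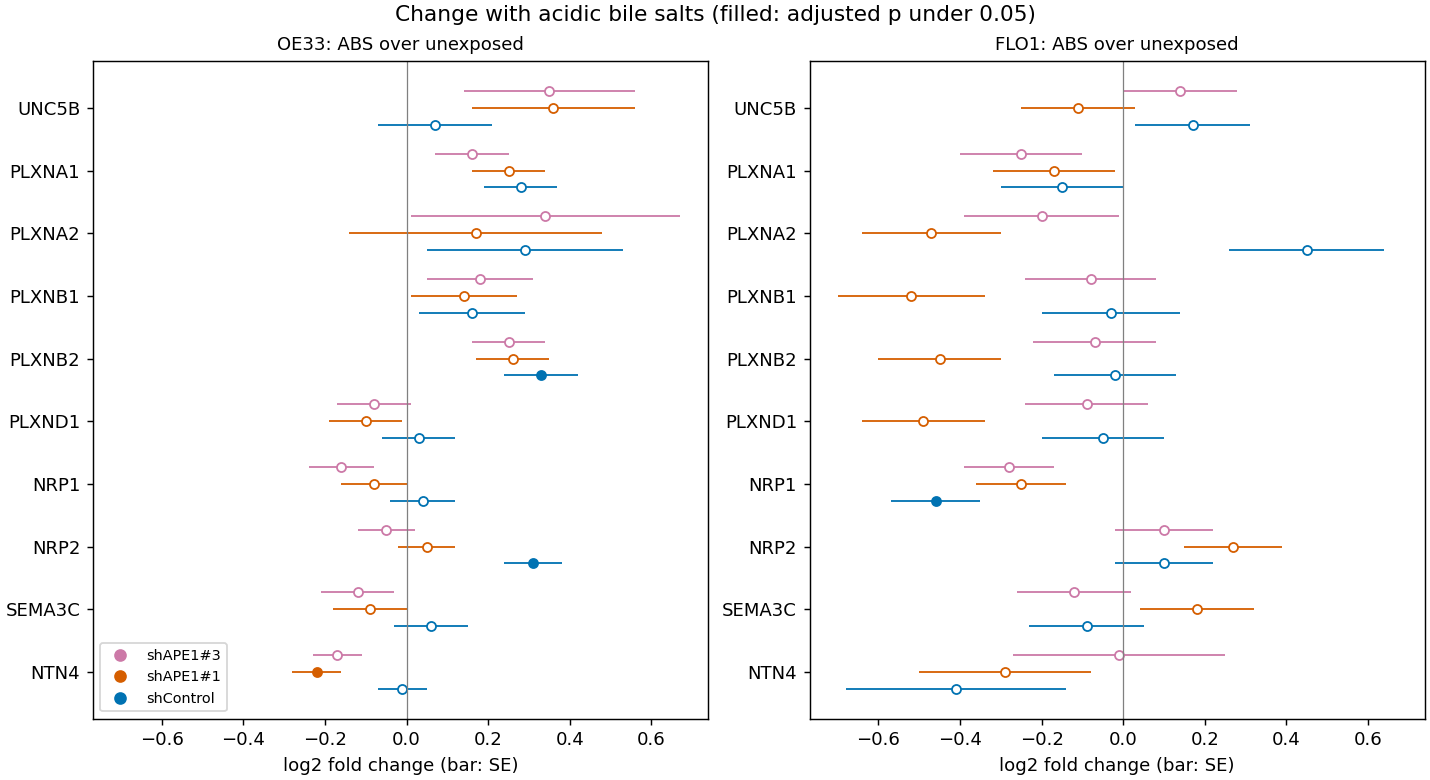
Log2 fold change after ABS over unexposed cells for each gene in OE33 (left) and FLO1 (right), with shAPE1#3, shAPE1#1 and shControl from top to bottom in each row; bars are SE and filled points have an adjusted p under 0.05. The filled points are NRP2 and PLXNB2 in OE33 shControl, NTN4 in OE33 shAPE1#1 and NRP1 in FLO1 shControl.

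The interaction of knockdown and ABS asks if the response to ABS differed between shAPE1 and shControl cells. With both shRNAs edgeR called 0 of the 10 genes and 0.0% of all genes in OE33, and 0 of the 10 and 0.0% in FLO1. DESeq2 called 0 of the 10 in each line, and 1 of the 10 in each line had an unadjusted p under 0.05 with both shRNAs, NRP2 in OE33 and PLXNA2 in FLO1. For PLXNA2 in FLO1 the interaction was -0.65 ± 0.27 with shAPE1#3 (edgeR adjusted p = 1.0) and -0.92 ± 0.26 with shAPE1#1 (adjusted p = 0.41). Without FLO1 shControl ABS replicate 2 it was -0.58 ± 0.27 and -0.85 ± 0.26 (adjusted p = 0.921 and 0.401). The other 9 genes of FLO1 lay between -0.10 and 0.40 with shAPE1#3 and between -0.50 and 0.27 with shAPE1#1, and without that library between -0.22 and 0.31 and between -0.27 and 0.24. In OE33 the genes besides NRP2 lay between -0.19 and 0.28 with shAPE1#3 and between -0.20 and 0.29 with shAPE1#1.

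The lines were also compared in their responses. The effect of knockdown in unexposed cells, as the mean of both shRNAs, was called different in 2 of the 10 genes, against 6.37% of all 18199 genes. For UNC5B the difference, OE33 minus FLO1, was -2.92 ± 0.20 on the log2 scale (edgeR adjusted p = 4.09e-13), and for PLXNA2 it was -2.34 ± 0.29 (adjusted p = 5.94e-07). The 2 shRNAs differ in FLO1 for PLXNA2, so the mean stands there for 2 unlike values. NRP1 had a difference of -0.34 ± 0.11 (adjusted p = 0.0514) and PLXNA1 of -0.10 ± 0.16 (adjusted p = 0.829). DESeq2 called 3 genes, with NRP1 added (adjusted p = 0.0376). PLXNB1, PLXNB2, PLXND1, NRP2, SEMA3C and NTN4 lay between -0.49 and 0.28. Of 5 mesenchymal markers tested, 3 had a knockdown effect called higher in OE33 than in FLO1, and of 8 epithelial markers 3 had one called lower, and their part was not tested. The epithelial ones were KRT8, KRT18 and CDH1. Each was called higher with shAPE1#1 in unexposed FLO1 cells (0.66, 0.42 and 1.21). Each also differed there between the shRNAs, so the FLO1 mean again stands for 2 unlike values. The response to ABS in shControl cells was called different for 1 of the 10 genes, NRP1, against 1.73% of all genes, with a difference of 0.49 ± 0.13 (adjusted p = 0.0426). When FLO1 shControl ABS replicate 2 was left out, 3 genes were called, NRP1 (0.44 ± 0.13), PLXNA1 (0.66 ± 0.17) and PLXNB2 (0.66 ± 0.14), with adjusted p-values of 0.0407, 0.0155 and 0.00266. The 1.73% belongs to the fit with that library, and the share of all genes without it is not given. The NRP1 call was lost without FLO1 shControl replicate 1 or 2 (0.134 and 0.0583), without OE33 shControl replicate 1 or 2 (0.0977 and 0.0815), without OE33 shControl ABS replicate 2 or 3 (0.11 and 0.0897), without the filter on low counts (0.118) and when only the compared groups were fitted (0.181). The 9 other genes lay between -0.16 and 0.42 in the fit to all libraries.

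Other genes of the pathway were read from lists. In unexposed OE33 cells, 3 of 10 plexin and neuropilin genes tested were lower with both shRNAs and none higher, where 12.9% of all genes were called, of which PLXNB3 is not among the 10 genes described here (log2 fold change -0.87 ± 0.16 with shAPE1#3 and -0.45 ± 0.15 with shAPE1#1). Of 7 netrin and netrin receptor genes 2 were lower, UNC5B and NEO1. NEO1 was at 10.1 ± 1.1 CPM with shAPE1#3, 10.4 ± 0.92 CPM with shAPE1#1 and 15.8 ± 0.93 CPM with shControl (-0.63 ± 0.11 and -0.61 ± 0.11). NTN1 had 0 counts in 4 of the 18 OE33 libraries and at most 22 in any, so no fold change is given for it. Of 14 semaphorin genes 2 were higher and 1 lower, beside 12.9% of all genes. SEMA7A, a membrane-anchored semaphorin that signals through integrins and PLXNC1, was at 88.0 ± 0.68 CPM with shAPE1#3, 89.9 ± 3.5 CPM with shAPE1#1 and 54.4 ± 2.8 CPM with shControl (0.71 ± 0.09 and 0.72 ± 0.09). SEMA4F was higher as well (0.80 ± 0.17 and 0.59 ± 0.16). SEMA3F, a ligand of NRP2, was at 8.33 ± 0.86 CPM with shAPE1#3, 7.53 ± 1.7 CPM with shAPE1#1 and 14.3 ± 1.1 CPM with shControl (-0.76 ± 0.14 and -0.93 ± 0.14).

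Of 24 mediators of plexin and netrin signals tested in unexposed OE33 cells, 3 were higher and 1 lower with both shRNAs, near the 12.9% of all genes. FYN, a Src family kinase that acts below plexins and netrin receptors, changed by 1.23 ± 0.17 with shAPE1#3 and 0.99 ± 0.17 with shAPE1#1. DPYSL3, a collapsin response mediator protein, changed by 0.50 ± 0.14 and 0.73 ± 0.14. Of 14 ephrin and Eph receptor genes 1 was higher and 1 lower, EFNB1 (-0.57 ± 0.08 with each), of 5 slit and robo genes 1 was higher (SRGAP1) and of 6 VEGF and co-receptor partner genes none was called. After ABS, SEMA7A, SEMA4F, SEMA3F, NEO1, FYN and DPYSL3 were called in the same direction with both shRNAs. In FLO1 no gene of the 7 guidance lists was called with both shRNAs, where 0.0711% of all genes were called unexposed and 0.142% after ABS. With shares this low, no call is no result about the guidance genes. With shAPE1#1 alone, DPYSL3 (1.74 ± 0.17) and PLXNA4 (0.80 ± 0.16) were higher and VEGFA, which binds neuropilins, was lower (-0.50 ± 0.08) in unexposed FLO1 cells. With shAPE1#3, NEO1 (-0.64 ± 0.13) and the mediators FARP2 (-0.55 ± 0.10) and MICAL2 (-0.52 ± 0.12) were lower in unexposed FLO1 cells. NEO1 and FARP2 were also lower with it after ABS (-0.65 ± 0.13 and -0.60 ± 0.10). NEO1 was higher with shAPE1#1 in unexposed FLO1 cells (0.41 ± 0.13). This NEO1 call and that of MICAL2 lay just under the threshold (edgeR adjusted p = 0.0497 and 0.0486). Alternative settings are not given for the list genes.

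Genes with the most similar pattern were sought for each gene whose group means spanned at least 2-fold, by the root mean square difference of 5 log2 changes from unexposed shControl cells. These changes are differences of mean log2 CPM with a constant added to each CPM, and not the edgeR fold changes given above. The constant shrinks the changes of genes at low levels, such as PLXNA2 and UNC5B in OE33 and NTN4 in FLO1. For UNC5B in OE33 the nearest of 530 genes was BHLHE41, with a difference of 0.193, and KCNQ1 and CALB2 were next at 0.367 and 0.371. For PLXNA2 in OE33 it was SMIM14, at 0.097, before CLMN at 0.12. In FLO1, where 621 genes were compared, PLXNA1 was nearest to VLDLR (0.097), NTN4 to MMP2 (0.089), NRP2 to JHY (0.057), PLXNB1 to PPFIA4 (0.06) and PLXNA2 to HIPK2 (0.184). The 5 changes of a gene share 1 set of control libraries, so likeness is a description of these libraries.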

How the data were processed

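PolyA mRNA of 36 libraries (12 groups of 3) was analysed. The deposited values are raw read counts per Ensembl gene, made by the authors with STAR 2.5.2b, Trimmomatic 0.36 and featureCounts of Subread 1.5.2 on build GRCh38, per the submitters' processing notes. Whether counting used strand is not given in the sources used here, nor is the annotation release or the handling of reads with several matches, so a gene and one antisense to it cannot be told apart. Such genes held at most 0.319% of the counts of a gene described. Of 57500 IDs, 56898 were matched to a symbol in GENCODE release 29, and the others held 0.0183% of the counts.

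From the counts, edgeR 4.0.16 in R 4.3.3 was run (TMM, filterByExpr, 1 coefficient per group, robust quasi-likelihood test, Benjamini-Hochberg adjustment over all genes tested). Fits used the 18 libraries of a line, or all 36 for differences between lines. Genes were called at an adjusted p under 0.05, and SE is the log2 fold change divided by the square root of F. "Both shRNAs" means called with each and in 1 direction. The code was tested on simulated data. CPM use raw library totals, and levels between genes are per kb of GENCODE exon union.

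Alternatives were RLE normalization, DESeq2 1.42.0, no filter on low counts, fitting only the compared groups, a replicate block, leaving out each replicate, and a correction for GC content that was added after the data were seen. The genes and lists were chosen with earlier results of these data known. All 10 genes are given in every comparison, some by a range. Of each list, up to 3 genes higher and 3 lower with the largest change and a mean log2 CPM of at least 1 could be named, and the text uses some of them. The other receptors and ligands given by level between the lines were chosen after their values were seen. The marker lists check the lines, and fibroblast, immune and neuronal marker lists summed to 2.49 to 20.7, 3.61 to 6.2 and 41.2 to 54.9 CPM in OE33 and to 18.7 to 37.6, 2.92 to 7.36 and 41.0 to 64.4 CPM in FLO1. The column of FLO1 shAPE1#3 ABS replicate 3 has an added suffix and was used as its name gives it.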

Additional observations from a re-analysis of the deposited data

Results flagged for a closer look

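Effects that differed between the lines under the same contrast, by a test of the difference itself, were found for 3 results. The effect of knockdown on UNC5B in unexposed cells differed by -2.92 on the log2 scale (OE33 minus FLO1, mean of both shRNAs, edgeR adjusted p = 4.09e-13). The effect of knockdown on PLXNA2 differed by -2.34 (adjusted p = 5.94e-07). In FLO1 the mean for PLXNA2 stands for 2 unlike values, 0.04 with shAPE1#3 and 1.06 with shAPE1#1. The response of NRP1 to acidic bile salts in shControl cells differed by 0.49 (adjusted p = 0.0426). That call was lost in 9 of 18 alternatives, with adjusted p-values of up to 0.181, while the UNC5B and PLXNA2 calls held in all 24 run for each.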

How the results depend on the processing

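No called value changed sign in the alternatives run. Shares of all genes called are given for the main fit only, so counts under other settings have no share beside them. Of 60 values called for the 10 genes, 60 stayed called under RLE normalization, DESeq2 and GC correction, 56 with a replicate block, 55 with no filter on low counts and 52 when only the compared groups were fitted, and 351 of 390 did when 1 replicate was left out. Of the 190 values not called, 6 were called by DESeq2, 11 with no filter, 29 under GC correction, 17 when only the compared groups were fitted and 0 under RLE normalization or the block. The block ended 4 calls: SEMA3C with shAPE1#1 after ABS in FLO1 (adjusted p = 0.0611), SEMA3C between the shRNAs in unexposed FLO1 cells (0.0715), NRP1 for ABS in FLO1 shControl cells (0.0521) and the difference of that response between lines (0.0697). Samples of the same number did not deviate together over all genes tested (median correlation 0.00977 in OE33 and -0.0117 in FLO1, lowest -0.288, highest 0.0947). A batch that touched only some genes or groups could be missed by this check. The number of the 10 genes called for ABS in FLO1 shControl cells was 0 under no filter, the replicate block and with only the compared groups fitted, and 0 to 1 with a replicate left out. For ABS in OE33 shControl cells it was 1 to 2 with a replicate left out. For ABS in OE33 knockdown cells with both shRNAs it was 1 under no filter (PLXNB2) and 1 under GC correction (NTN4). The difference between lines in the ABS response was called for 0 genes under no filter, the replicate block and with only the compared groups fitted, for 3 under GC correction and for 0 to 3 with a replicate left out. The difference in the knockdown effect was called for 4 genes under GC correction (with NRP1 and SEMA3C added) and 4 with only the compared groups fitted (with NRP1 and NTN4 added). The cause of these shifts was not tested. Counting error is largest for means near 1 CPM. PLXNA2 lay at 0.925 to 1.19 CPM and UNC5B at 1.41 to 1.97 CPM in the OE33 knockdown groups. NTN4 lay at 1.06 to 1.36 CPM in the FLO1 shControl and shAPE1#3 groups.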
